A study of Mus musculus with 15 samples.

Results

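The genes described here are *Hmgcs1*, *Idi1*, *Fdft1*, *Sqle* and *Lss*, which encode enzymes of cholesterol synthesis, and *Srebf2* and *Insig1*, which control their transcription. They were chosen by symbol as targets and regulators of SREBP2, and all 7 were found among the 56832 genes of the count table. None of the 7 is itself an uptake receptor, so genes of cholesterol uptake and transport were followed as a separate list. The counts come from bulk RNA-sequencing of cultured bone marrow mesenchymal stromal cells (MSCs) of 16 week old mice on the C57BL/6J background, with 15 libraries in all. The mice were TauT+/+ (wild-type) or TauT−/− (TauT KO in the labels), where TauT is the taurine transporter encoded by *Slc6a6*. By label there were 4 TauT+/+ and 4 TauT−/− male libraries, and 3 TauT+/+ and 4 TauT−/− female libraries. TauT is absent from the whole animal in this model and not from MSCs alone, and both genotypes were cultured in the same medium with 15% fetal bovine serum, with no treatment named in the labels. Per the study's methods, MSCs were enriched from adherent marrow cultures by removing CD45, Ter119 and CD31 positive cells or by flow sorting.

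Cells make cholesterol from acetyl-CoA through the mevalonate pathway, in which HMGCS1 makes HMG-CoA and IDI1 interconverts the isoprenoid building blocks. Squalene synthase (FDFT1) commits the pathway to sterols, squalene epoxidase (SQLE) adds oxygen to squalene, and lanosterol synthase (LSS) closes the sterol rings. SREBP2, the product of *Srebf2*, is held in the endoplasmic reticulum by INSIG1 when sterols are plentiful, and is cut and released to the nucleus when sterols are scarce, where it raises transcription of these enzymes, of *Srebf2* and of *Insig1*. Their mRNA levels therefore serve as a common readout of sterol demand, in MSCs as in most cells.

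SREBP2 acts on promoters through sterol regulatory elements, usually beside NF-Y and Sp1 sites, so the promoters of the pair of members that varied most alike (*Hmgcs1* and *Idi1*) and of the member least like the others (*Lss*) are shown. RefSeq promoters on GRCm38.p6 were at hand for 5 of the 7 members (*Hmgcs1*, *Idi1*, *Insig1*, *Srebf2* and *Lss*). Each run is the 250 bases before the gene's start on its own strand, the plus strand, at chr13:119690101-119690350 (*Hmgcs1*), chr13:8885356-8885605 (*Idi1*) and chr10:76531355-76531604 (*Lss*). Capitals mark matches on either strand to the sterol regulatory element letters TCACNCCAC, to CCAAT, which binds NF-Y, to GGGCGG, which binds Sp1, and to CACGTG, which is an E-box.
Hmgcs1: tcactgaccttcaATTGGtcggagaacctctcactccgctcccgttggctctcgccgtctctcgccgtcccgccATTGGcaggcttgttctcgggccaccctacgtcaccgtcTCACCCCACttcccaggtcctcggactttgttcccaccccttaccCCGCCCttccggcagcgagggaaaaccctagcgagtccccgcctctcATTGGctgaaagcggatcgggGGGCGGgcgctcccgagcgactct
Idi1: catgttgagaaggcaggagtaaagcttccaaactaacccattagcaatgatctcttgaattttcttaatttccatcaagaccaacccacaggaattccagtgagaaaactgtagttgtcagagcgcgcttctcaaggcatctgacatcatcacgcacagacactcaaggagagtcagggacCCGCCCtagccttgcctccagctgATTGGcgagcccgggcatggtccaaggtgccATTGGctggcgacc
Lss: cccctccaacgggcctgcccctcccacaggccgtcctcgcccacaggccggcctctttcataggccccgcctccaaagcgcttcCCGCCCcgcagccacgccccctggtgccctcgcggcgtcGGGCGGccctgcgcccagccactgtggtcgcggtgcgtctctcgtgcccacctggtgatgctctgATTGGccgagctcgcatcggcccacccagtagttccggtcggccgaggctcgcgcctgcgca

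The sterol regulatory element letters TCACCCCAC were found in the *Hmgcs1* window, 137 bases before the start, and in no other of the 5. They occur in 0.496% of the 32851 promoters of the same length, and the looser TCACNCCAC, which includes them, in 1.05%. A stretch that differs in another letter, such as TCACCCCAT in the *Srebf2* window, was not counted. CCAAT, the NF-Y letters, lay in all 5 windows, with 3 copies before *Hmgcs1*, 2 before *Idi1* and 1 each before *Insig1*, *Srebf2* and *Lss*. GGGCGG, the Sp1 letters, also lay in all 5. Each of these shorter motifs is common, in 33.8% and 32.7% of all promoters. CACGTG, an E-box, was found before *Insig1* (101 bases before the start) and occurs in 6.02% of promoters. These are matches of letters and not measured binding.

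Total counts were 69764291 to 101575071 in libraries with the male label and 12761107 to 20781070 in those with the female label, so sex label and depth cannot be told apart, and TauT+/+ and TauT−/− libraries were sequenced at either depth. *Slc6a6* itself was at 1561 ± 724 CPM (counts relative to TMM-scaled library size, mean ± SD, n = 7) in TauT+/+ and 818 ± 416 CPM in TauT−/− libraries (n = 8), and the genotypes overlapped (log2 fold change −0.94, SE 0.37, adjusted p = 0.141 by edgeR). In 3 libraries, labelled TauT+/+ male 1, TauT−/− male 1 and TauT+/+ female 3, sex-linked genes went against the label. The libraries numbered 1 of the same genotype under both sex labels were nearly identical. Their log2 ratios of counts per gene had a spread of 0.111 (TauT+/+) and 0.10 (TauT−/−), where counting alone gives about 0.059 and 0.057, and the next closest of the 105 pairs had 0.268. They differed by more than counting noise, as repeat preparations of one sample can too, so whether they are separate samples cannot be told from these values. All 15 libraries were kept as labelled, and this choice decides the calls over all genes. edgeR called 108 genes lower and 103 higher with 15 libraries, 0 and 2 with the female-labelled one of each pair kept, and 0 and 0 without the 3 libraries. The labels do not say whether libraries came from separate mice, so p-values measure the spread between these libraries.

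None of the 7 genes passed the test for a difference between TauT−/− and TauT+/+ MSCs. edgeR's quasi-likelihood test with sex label and genotype in the model called 0 of the 7 at an adjusted p under 0.05, against 1.16% of the 18263 genes tested (0.564% higher and 0.591% lower), and 0 of the 7 had an unadjusted p under 0.05, against 23.6% of all genes. DESeq2 also called 0 of 7 (11.5% of all genes), as did voom with sample quality weights. The median log2 fold change of the 7 was 0.013, beside 0.0049 for all genes tested. All 7 passed the filter on low counts, and the genotypes overlapped for each. A missed threshold does not show that levels are equal, but the 95% intervals bound the difference. Across the 7, in the fit of all 15 libraries, they ran from a log2 fold change of −0.65 (*Sqle*) to 0.69 (*Lss*). In that fit a change of 2-fold in either direction lay outside the interval of all 7. The fit counts the nearly identical libraries as separate samples, and within the female label alone the intervals of *Idi1* and *Lss* reached past 2-fold. Of all genes tested over the 15 libraries, 9513 had an interval within 2-fold in both directions.

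**Figure D1:**
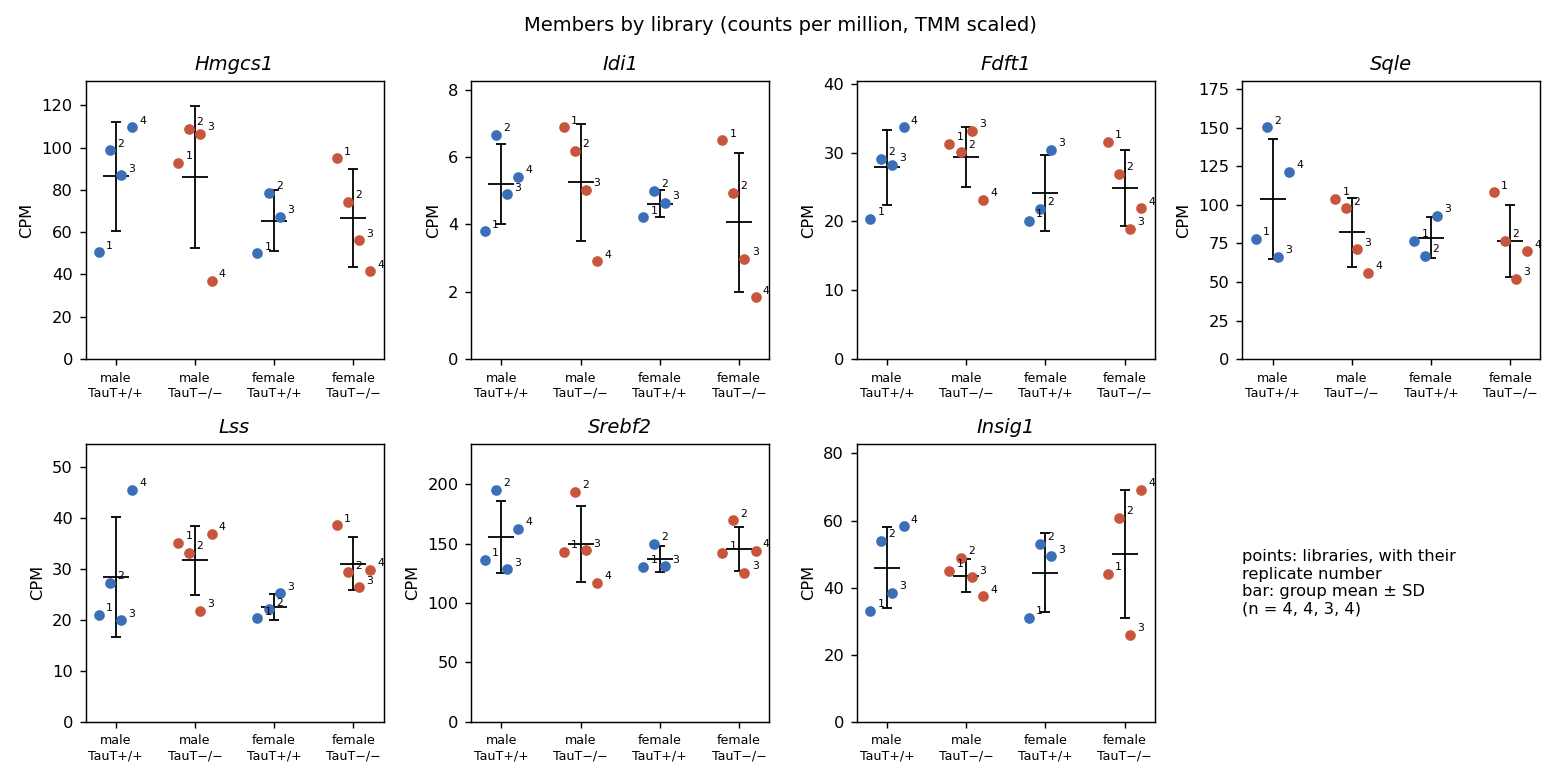
CPM (vertical axis, starting at 0) of each of the 7 genes in the 4 labelled groups. Points are libraries with their replicate number, blue TauT+/+ and red TauT−/−, and bars are the group mean ± SD (n = 4, 4, 3 and 4). The genotypes overlap in every panel, and *Hmgcs1* and *Idi1* are low in TauT−/− male 4 and female 4.

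*Hmgcs1* (chromosome 13, 120151915 to 120170470, GRCm39), the enzyme at the entry of the pathway, was at 50.4, 98.7, 86.8 and 109.6 CPM in TauT+/+ male libraries 1 to 4 and at 49.97, 78.6 and 67.4 CPM in TauT+/+ female libraries 1 to 3. TauT−/− libraries held 92.8, 109, 106 and 36.95 CPM (male 1 to 4) and 94.9, 74.3, 56.1 and 41.4 CPM (female 1 to 4). The lowest value was in TauT−/− male 4 and the highest in TauT+/+ male 4, and each genotype spanned most of the range of the other. Means were 77.4 ± 22.9 (SD, n = 7 TauT+/+) and 76.5 ± 28.7 CPM (SD, n = 8 TauT−/−), a log2 fold change of 0.013 with an SE of 0.24, a 95% interval of −0.51 to 0.53 and an adjusted p of 0.983 by edgeR.

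*Idi1* (chromosome 13, 8935537 to 8942487) was the least abundant of the 7. It was at 3.80, 6.66, 4.90 and 5.41 CPM in TauT+/+ male and 4.21, 5.01 and 4.64 CPM in TauT+/+ female libraries, and at 6.88, 6.19, 5.03 and 2.90 CPM in TauT−/− male and 6.50, 4.93, 2.98 and 1.83 CPM in TauT−/− female libraries, in the order of their numbers. TauT−/− libraries held both the highest value (male 1) and the lowest (female 4), so that the SD was 0.922 CPM around a mean of 4.94 in TauT+/+ (n = 7) and 1.88 CPM around 4.66 in TauT−/− libraries (n = 8). The log2 fold change was −0.07 with an SE of 0.26, a 95% interval of −0.63 to 0.48 and an adjusted p of 0.893 by edgeR.

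Of the enzymes from farnesyl diphosphate to lanosterol, *Fdft1* (chromosome 14, 63382189 to 63417027) varied least. TauT+/+ libraries held 20.4, 29.1, 28.2 and 33.7 CPM (male) and 20.1, 21.8 and 30.4 CPM (female), and TauT−/− libraries 31.2, 30.1, 33.1 and 23.1 CPM (male) and 31.5, 26.9, 18.97 and 21.9 CPM (female). Values lay between 19.0 and 33.7 CPM, with means of 26.2 ± 5.42 (SD, n = 7 TauT+/+) and 27.1 ± 5.22 CPM (SD, n = 8 TauT−/−), a log2 fold change of 0.06 with an SE of 0.14, a 95% interval of −0.25 to 0.37 and an adjusted p of 0.828 by edgeR.

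*Sqle* (chromosome 15, 59186869 to 59203043), a rate-limiting step of the sterol branch, was highest in the libraries labelled TauT+/+ male 2 and male 4. Its values were 78.00, 150.3, 66.4 and 122 CPM in TauT+/+ male and 76.6, 67.05 and 92.9 CPM in TauT+/+ female libraries, against 104, 97.8, 71.1 and 56.1 CPM in TauT−/− male and 108, 76.7, 51.9 and 69.9 CPM in TauT−/− female libraries. The means, 93.3 ± 31.6 (SD, n = 7 TauT+/+) and 79.4 ± 21.5 CPM (SD, n = 8 TauT−/−), gave a log2 fold change of −0.20 with an SE of 0.21, a 95% interval of −0.65 to 0.24 and an adjusted p of 0.581 by edgeR, within the spread between libraries. With the mean of the macrophage markers as a covariate, the sign turned (0.27, edgeR adjusted p = 0.552).

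*Lss* (chromosome 10, 76367298 to 76392976) had the largest difference of the 7 in size. TauT+/+ libraries held 21.1, 27.3, 19.9 and 45.5 CPM (male) and 20.3, 22.1 and 25.2 CPM (female), and TauT−/− libraries 35.1, 33.2, 21.8 and 36.9 CPM (male) and 38.6, 29.3, 26.4 and 29.9 CPM (female). Among female libraries the lowest TauT−/− value (26.4 CPM) was close to the highest TauT+/+ value (25.2 CPM), and the unadjusted p within that label was 0.115 by edgeR. Among male libraries the highest value was in TauT+/+ male 4, and TauT−/− male 3 lay among the low TauT+/+ values. Means were 25.9 ± 9.06 (SD, n = 7 TauT+/+) and 31.4 ± 5.63 CPM (SD, n = 8 TauT−/−), a log2 fold change of 0.30 with an SE of 0.18, a 95% interval of −0.09 to 0.69 and an adjusted p of 0.343 by edgeR. It stayed above 0 in all 26 alternative fits (0.20 to 0.53) and passed the threshold in none (edgeR, DESeq2 and voom adjusted p = 0.0904 to 0.596).

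The regulators were not called either. *Srebf2* (chromosome 15, 82031382 to 82093201) was at 136, 195, 128 and 162 CPM in TauT+/+ male and 131, 150.2 and 131 CPM in TauT+/+ female libraries. In TauT−/− libraries it was at 143, 194, 144 and 117 CPM (male) and 142, 169.9, 125 and 144 CPM (female). The genotype means were 147.8 ± 24.3 (SD, n = 7 TauT+/+) and 147.5 ± 24.3 CPM (SD, n = 8 TauT−/−), and the log2 fold change of 0.0078 (SE 0.12, adjusted p = 0.978 by edgeR) had the narrowest interval of the 7, −0.26 to 0.27. Its biological coefficient of variation, the spread between libraries beyond counting, was 0.205, beside a median of 0.362 over all genes tested. These values are of the mRNA, while SREBP2 is switched on by cleavage of the protein, which was not measured in these files.

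*Insig1* (chromosome 5, 28276315 to 28283668), both a brake on SREBP2 and one of its targets, was at 33.2, 53.98, 38.5 and 58.3 CPM (TauT+/+ male) and 31.01, 53.00 and 49.3 CPM (TauT+/+ female). TauT−/− male libraries held 44.97, 48.9, 43.1 and 37.4 CPM and TauT−/− female libraries 44.2, 60.9, 25.9 and 69.1 CPM, so the lowest and the highest value both came from TauT−/− female libraries (3 and 4). The means were 45.3 ± 10.9 (SD, n = 7 TauT+/+) and 46.8 ± 13.4 CPM (SD, n = 8 TauT−/−), a log2 fold change of 0.04 with an SE of 0.20, a 95% interval of −0.39 to 0.47 and an adjusted p of 0.935 by edgeR.

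Genotype effects were also fitted within each sex label. Within male-labelled libraries the log2 fold changes ran from −0.34 (*Sqle*) to 0.16 (*Lss*), and within female-labelled ones from −0.18 (*Idi1*) to 0.46 (*Lss*). edgeR called 0 of 7 in either, as it called 0% of all genes, and 0 of 7 had an unadjusted p under 0.05, against 8.7% (male label) and 14.8% (female label) of all genes. The difference between both effects was largest for *Lss* (0.30, SE 0.37, unadjusted p = 0.425 by edgeR's interaction contrast) and passed the threshold for 0 of 7 genes, as for 0% of all genes, with 0 of 7 at an unadjusted p under 0.05 (1.62% of all genes). Female-labelled libraries lay lower than male-labelled ones for 6 of the 7, most for *Hmgcs1* (log2 fold change −0.39, SE 0.25, adjusted p = 0.848 by edgeR) and not for *Insig1* (0.08), with 0 of 7 called, against 0.0164% of all genes.

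To compare levels between genes, CPM were divided by the length of each gene's exons. *Srebf2* and *Hmgcs1* were then highest, at 15.8 ± 2.51 and 14.6 ± 4.79 CPM per kb (SD, n = 15). *Sqle* and *Insig1* followed at 9.67 ± 2.997 and 9.44 ± 2.43, then *Fdft1* at 5.59 ± 1.08, *Lss* at 2.54 ± 0.676 and *Idi1* at 1.35 ± 0.414 CPM per kb. The ranges of neighbours in this order overlapped in every case, while *Idi1* (0.516 to 1.94) lay below *Fdft1* (3.97 to 7.05) in every library. The order depends on the length used. Per kb of the main transcript alone *Sqle* was highest (30.6 CPM per kb), ahead of *Srebf2* (29.1), *Hmgcs1* (18.8) and *Insig1* (16.8), and *Idi1* was again lowest (1.85).

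For some members the counts carry limits of the genome. Of the *Idi1* transcript, 95.8% is matched at 99.32% identity by the pseudogene *Idi1-ps1* on chromosome 2, and of *Insig1* 74.2% is matched at 97.94% by *Gm37784* on chromosome 3. Of *Fdft1* 48.0% is matched at 96.96% by *Gm6781* on chromosome 14. As annotated, these copies were at 0.015 CPM or less on average, but each annotation is shorter than the matched stretch, so this does not count all reads there. Reads that fit gene and copy alike could have been lost from the gene, so the levels of *Idi1*, *Insig1* and *Fdft1* are uncertain. *Fdft1* also shares 24.8% of its exon bases with *Ctsb*, which lies on the other strand and encodes the lysosomal protease cathepsin B. *Ctsb* was at 1931 ± 576 CPM in the 7 TauT+/+ and 4276 ± 2236 CPM in the 8 TauT−/− libraries (mean ± SD) (log2 fold change 1.07, edgeR adjusted p = 0.0620). Reads were counted on one strand, while the library protocol names no step that keeps the strand, so reads in the shared exons cannot be told apart. The part of *Ctsb* in the *Fdft1* counts was not tested. The other members shared at most 10.6% of their exon bases with a neighbour (*Hmgcs1*, with *Gm48342*, at 0.0246 CPM).

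Levels of some of the 7 varied together from library to library. Pearson's r of log2(CPM + 0.5) was computed for the 21 pairs over 13 libraries, without the male-labelled library of each near-identical pair. It was above 0 for 21 of 21 pairs, with a median of 0.49 (0.04 to 0.87). Within the male label r was above 0 for 18 of 21 pairs (lowest −0.20), within the female label for 20, and without the 2 farthest libraries for 20. Over all pairs of 9528 genes, those averaging 10 CPM or more and the members, the median was 0.017, and 13.2% of pairs reached 0.49. These correlations share the scaling of each library, and genes are not independent of each other. With Benjamini-Hochberg adjustment over the 21 pairs, 6 passed the threshold by r and 10 by Spearman's rho. The share of all gene pairs past the same threshold was not computed.

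*Hmgcs1* and *Idi1* were the closest pair (r = 0.87, permutation p = 0.00016, adjusted p = 0.00336, rho = 0.88, n = 13 libraries). Without the 2 libraries farthest from the median of *Hmgcs1*, r was 0.78, and it was 0.91 in male-labelled (n = 6) and 0.90 in female-labelled libraries (n = 7). Of the 9527 other genes, 5 including *Idi1* were as close to *Hmgcs1* (0.0525%), while 94 including *Hmgcs1* were as close to *Idi1* (0.987%). *Hmgcs1* and *Fdft1* (r = 0.78) and *Sqle* and *Srebf2* (0.71) followed, and *Sqle* with *Idi1* (0.68), *Fdft1* with *Idi1* (0.68) and *Sqle* with *Fdft1* (0.66) also passed. Of the 9527 other genes, 9.01% were as close to *Idi1* as *Sqle* was, and 9.32% as close as *Fdft1* was. From the other side, 2.12% were as close to *Sqle* as *Idi1* was, and 0.924% as close to *Fdft1*. *Sqle* with *Srebf2* rested more on single libraries, with r = 0.54 without the 2 farthest and 0.17 in female-labelled libraries. By r, *Lss* and *Insig1* had 0 pairs past the threshold. *Lss* was the least like the others, with a median r of 0.29 and 0.04 with *Idi1*. *Insig1* was closest to *Srebf2* (r = 0.60, permutation test, adjusted over the 21 pairs p = 0.0675). By rho this pair passed (0.73, permutation test, adjusted p = 0.0252).

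Levels of the 7 genes also varied between libraries of the same genotype. Within a genotype the ratio of the highest to the lowest library ran from 1.52 (*Srebf2*, TauT+/+) to 3.76 (*Idi1*, TauT−/−), and the genotype means differed at most 1.21-fold (*Lss*). A range over several libraries is usually wider than a ratio of means, also for a gene that differs, so these values describe the spread and are no test. Averaged over the 7 genes as z-scores, the highest libraries were TauT+/+ male 4 (1.08) and male 2 (0.95) and TauT−/− male 2 (0.84), and the lowest were TauT−/− female 3 (−1.17), TauT+/+ female 1 (−0.88) and TauT−/− male 4 (−0.85), so each genotype had libraries at both ends. After the mean of each labelled group was taken out, the median r of the 21 pairs was 0.51.

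**Figure D2:**
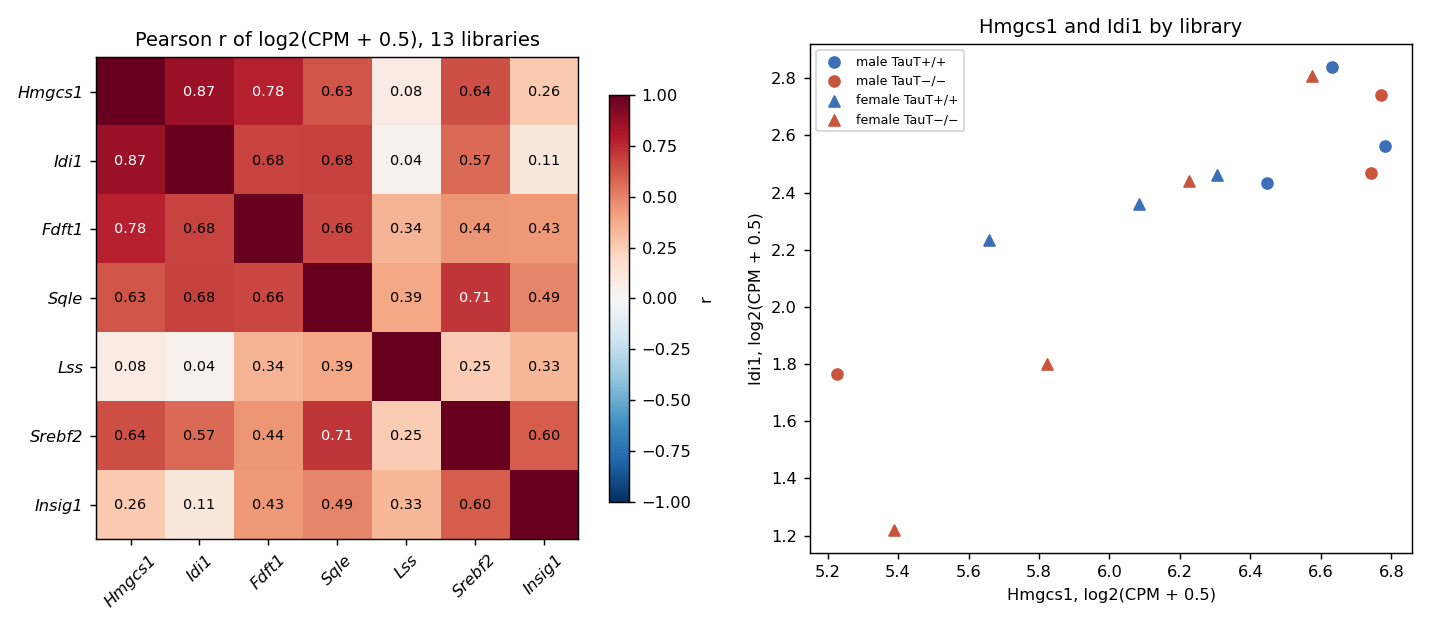
Left, Pearson r of log2(CPM + 0.5) for each pair of the 7 genes over 13 libraries, from 0.04 (*Idi1* and *Lss*) to 0.87 (*Hmgcs1* and *Idi1*), with the colour scale from −1 to 1. Right, *Idi1* against *Hmgcs1*, both as log2(CPM + 0.5), with a point per library (circles male, triangles female, blue TauT+/+, red TauT−/−), where both genotypes lie along the same rising band.

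Among 9521 other genes with a mean of at least 10 CPM, *Cyp51*, which encodes the enzyme that removes a methyl group from lanosterol, followed the mean z-score of the 7 most closely (r = 0.88 over the 13 libraries). *Sc5d*, a desaturase near the end of the pathway, ranked 5 (r = 0.82). *Puf60* (0.84), *Spsb3* (0.84), *Prkar1b* (0.82), *Fam117a* (0.82), *Laptm4b* (0.82) and *Rrp36* (0.81) made up the rest of the closest 8. Other listed synthesis enzymes at 10 CPM or more were less close, from rank 19 (r = 0.77) down to rank 4695 (r = 0.03). *Cyp51* was at 52.2 ± 19.3 CPM in the 7 TauT+/+ and 54.3 ± 22.0 CPM in the 8 TauT−/− libraries (mean ± SD) (log2 fold change 0.09, edgeR adjusted p = 0.884), and none of the 8 was called between the genotypes.

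None of the remaining enzymes of the pathway that were tested was called either. A list of 7 other mevalonate pathway genes had 6 tested, of which 0 were called by edgeR and 0 by DESeq2, with 0 at an unadjusted p under 0.05 and a median log2 fold change of −0.05. The largest changes were those of *Acat2*, an acetyl-CoA thiolase (−0.39, SE 0.30, adjusted p = 0.448 by edgeR), and *Mvd*, which decarboxylates mevalonate diphosphate (0.29, SE 0.22, adjusted p = 0.445 by edgeR). Of 11 genes from lanosterol to cholesterol, 0 were called by either tool or had an unadjusted p under 0.05, and the median was also −0.05. *Msmo1*, a sterol methyl oxidase, had 0.21 (SE 0.14, adjusted p = 0.367 by edgeR). With the 5 member enzymes, 22 enzymes of synthesis were tested, with 0 called, 7 above 0 and 15 below, and 20 of them had a 95% interval within 2-fold in both directions.

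Other genes that control SREBP processing also gave 0 calls of 10 by either tool, with a median of 0.03. *Mbtps2*, the site-2 protease that frees SREBP in the membrane, had the largest change (30.6 ± 4.30 CPM, SD, n = 7, to 40.4 ± 10.4 CPM, SD, n = 8, log2 fold change 0.40, SE 0.16, adjusted p = 0.141 by edgeR). It was the only 1 of the 10 with an unadjusted p under 0.05, and 11.8% of all genes were higher at that p. The paralogs of the regulators among the members had small differences too, 0.14 for *Srebf1* and 0.16 for *Insig2*, named here after their values were seen.

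**Figure D3:**
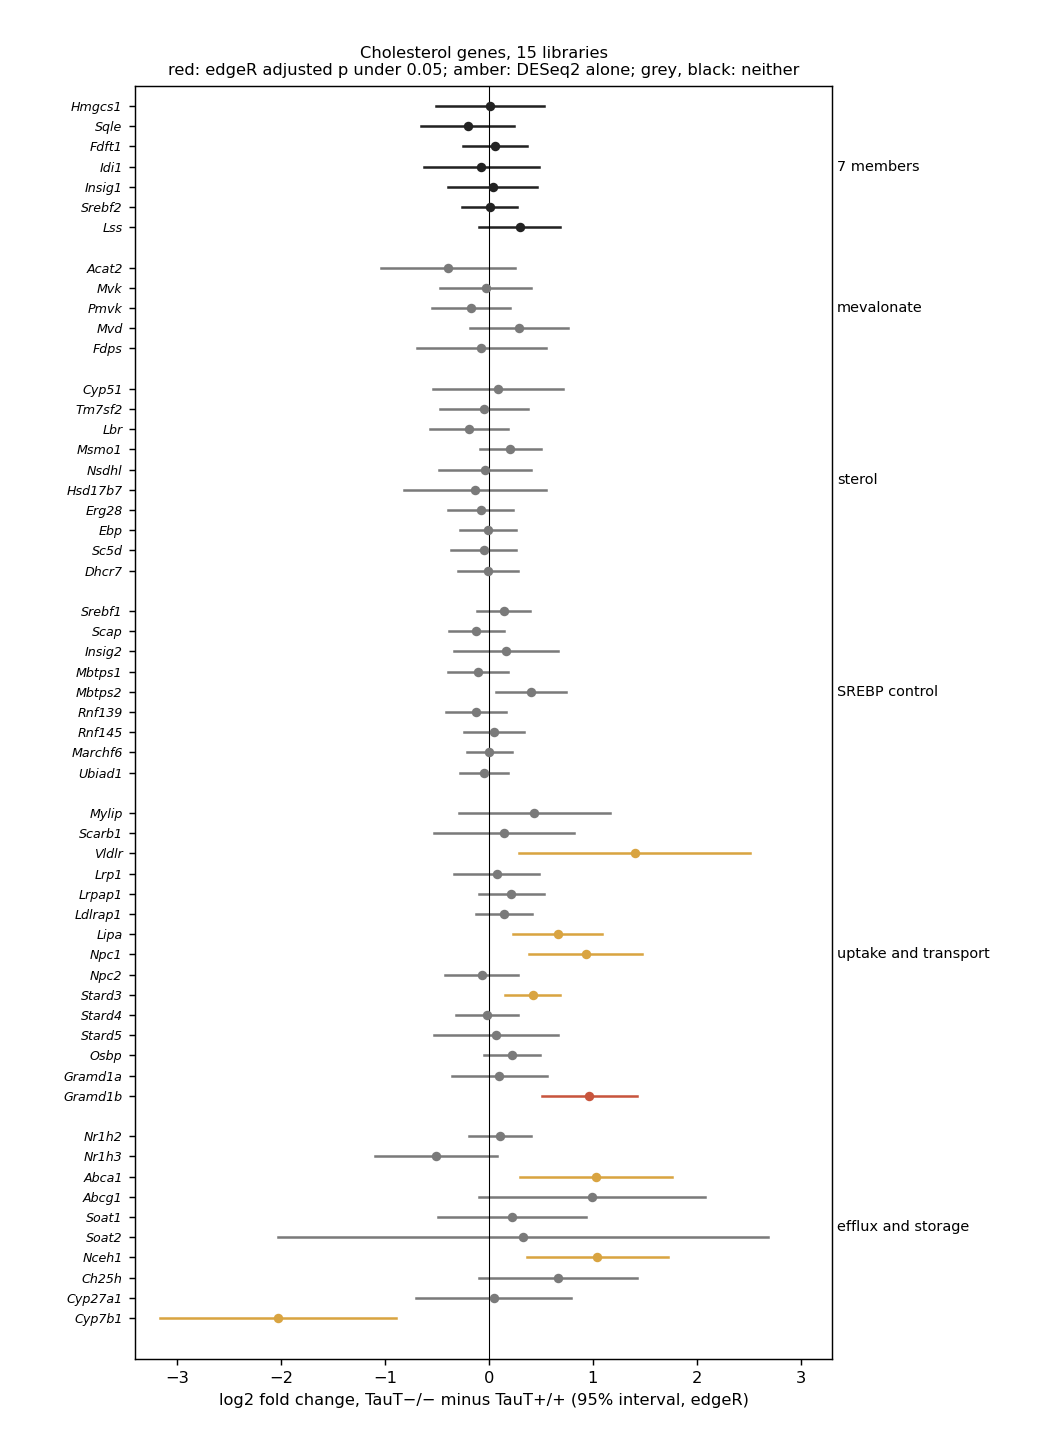
Log2 fold change of TauT−/− against TauT+/+ MSCs (points) with 95% intervals (lines) from edgeR over 15 libraries, for the 7 members in black and most of the other cholesterol genes by list. Red marks an edgeR adjusted p under 0.05 (*Gramd1b*) and amber a call by DESeq2 alone. The drawn intervals of synthesis genes and, apart from *Mbtps2*, of SREBP control genes include 0, while those of *Vldlr*, *Lipa*, *Npc1*, *Stard3*, *Gramd1b*, *Abca1* and *Nceh1* lie to the right of it and that of *Cyp7b1* to the left.

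Among genes that take up and move cholesterol, *Gramd1b* alone passed the main test, by edgeR. Of 17 uptake and transport genes, edgeR called 1 higher and 0 lower (0.564% and 0.591% of all genes), 5 had an unadjusted p under 0.05, all higher (11.8% of all genes higher), and DESeq2 called 5 higher and 0 lower (5.34% and 6.13%). The median log2 fold change was 0.22, beside 0.0049 for all genes, and 15 of 17 were above 0. No test of the difference between this list and the synthesis genes was made.

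*Gramd1b*, which carries cholesterol from the plasma membrane to the endoplasmic reticulum, rose 1.96-fold. It was at 76.8, 36.3, 59.9 and 68.5 CPM in TauT+/+ male and 71.7, 70.2 and 46.7 CPM in TauT+/+ female libraries, and at 90.96, 87.2, 77.9 and 141 CPM in TauT−/− male and 112, 109.9, 198 and 185 CPM in TauT−/− female libraries. The lowest TauT−/− value exceeded the highest TauT+/+ value, as for 0.783% of all genes, though the closest values, 76.8 CPM in TauT+/+ male 1 and 77.9 CPM in TauT−/− male 3, nearly met. The log2 fold change was 0.97 (SE 0.22, adjusted p = 0.0453 by edgeR). The call was not stable. In fits that left out 1 library it was kept without TauT+/+ male 1, TauT+/+ male 3 or TauT−/− female 1 and lost without any of the 12 others (0.85 to 1.06, edgeR adjusted p = 0.0312 to 0.115), and it was lost over 13 libraries with the female-labelled ones kept (1.08, edgeR adjusted p = 0.0729) and without the 3 libraries whose sex-linked genes go against the label (0.98, edgeR adjusted p = 0.156).

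The other DESeq2 calls in this list, none of which passed the main test, were named after their values were seen. They were *Npc1* and *Lipa*, which export and free cholesterol in lysosomes, *Stard3*, a sterol carrier of late endosomes, and *Vldlr*, a lipoprotein receptor. *Npc1* was at 98.2 ± 20.6 CPM in the 7 TauT+/+ and 199.7 ± 104.0 CPM in the 8 TauT−/− libraries (mean ± SD), a log2 fold change of 0.93 (SE 0.25, adjusted p = 0.0690 by edgeR, DESeq2 adjusted p = 0.0115). *Lipa* was at 241 ± 58.1 and 388 ± 141.8 CPM (log2 fold change 0.66, edgeR adjusted p = 0.0857, DESeq2 adjusted p = 0.0268). *Stard3* went from 26.3 ± 3.18 to 35.4 ± 7.09 CPM (0.42, edgeR adjusted p = 0.0786) and *Vldlr* from 46.7 ± 30.9 to 123.1 ± 75.6 CPM (1.4, edgeR adjusted p = 0.128), with the same n.

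Of 11 genes of efflux and storage, edgeR called 0, with 2 higher and 1 lower at an unadjusted p under 0.05 (11.8% of all genes higher and 11.8% lower). DESeq2 called those 2 higher and 1 lower (5.34% and 6.13%). *Nceh1*, a hydrolase of cholesteryl esters, was at 49.4 ± 21.5 CPM in the 7 TauT+/+ and 108.6 ± 50.3 CPM in the 8 TauT−/− libraries (mean ± SD) (log2 fold change 1.04, SE 0.32, adjusted p = 0.0835 by edgeR, DESeq2 adjusted p = 0.0231). *Cyp7b1*, an oxysterol hydroxylase, was at 5.32 ± 4.63 and 1.29 ± 0.548 CPM (log2 fold change −2.03, SE 0.53, adjusted p = 0.0633 by edgeR, DESeq2 adjusted p = 0.00346). Its highest TauT+/+ values lay in the nearly identical libraries male 1 (11.7 CPM) and female 1. The other TauT+/+ libraries held 1.32 to 4.46 CPM and TauT−/− libraries 0.323 to 1.89 CPM, so the genotypes overlapped. In fits that left out 1 library the log2 fold change ran from −2.24 to −1.6, smallest in size without TauT+/+ male 1. In the other alternatives it ran from −2.04 to −1.46. *Abca1*, the pump that passes cholesterol to apolipoproteins and a target of LXR, was named after its values were seen, with 123.2 ± 37.2 and 267 ± 177 CPM (1.03, edgeR adjusted p = 0.102, DESeq2 adjusted p = 0.0336). Its highest value, 665 CPM, was in TauT−/− female 4.

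**Figure D4:**
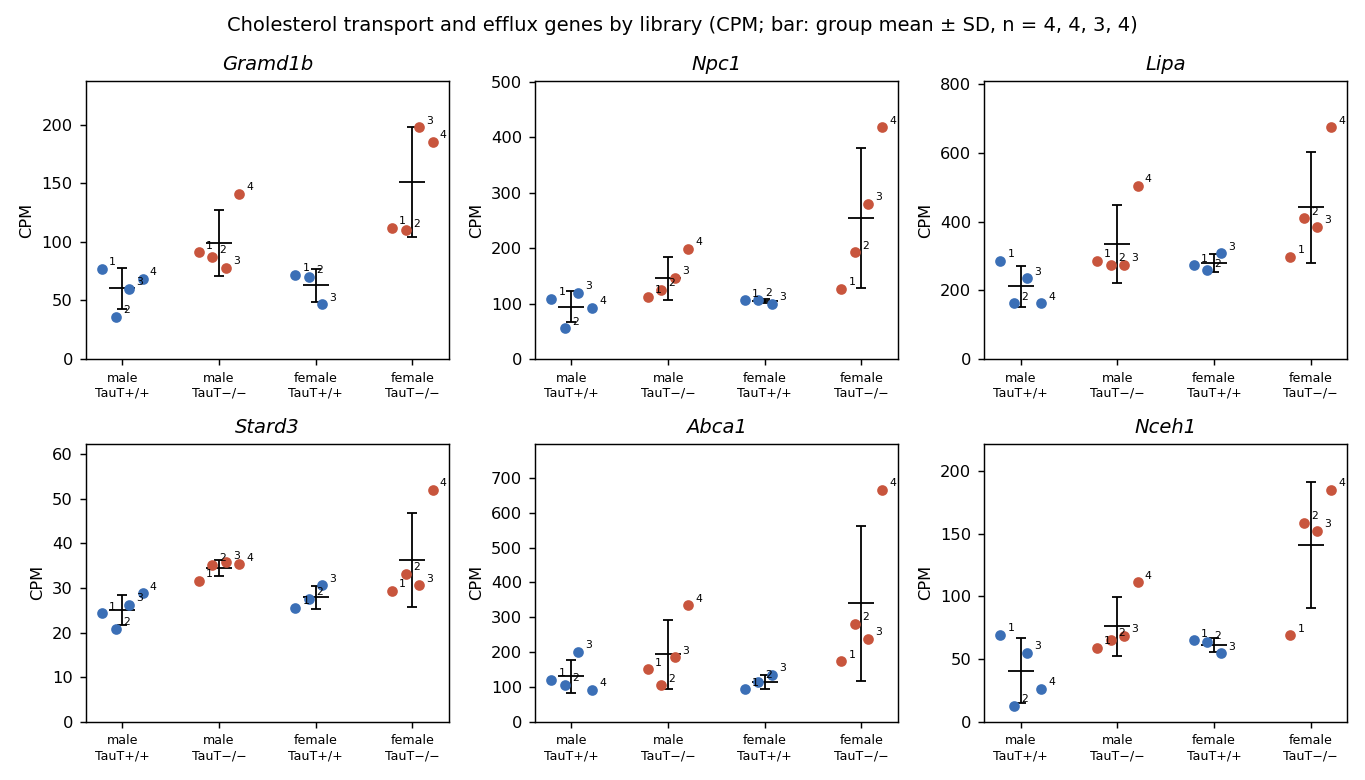
CPM (vertical axes, starting at 0) of *Gramd1b*, *Npc1*, *Lipa*, *Stard3*, *Abca1* and *Nceh1* in the 4 labelled groups, with replicate numbers at the points and group mean ± SD as bars (n = 4, 4, 3 and 4, blue TauT+/+, red TauT−/−). *Gramd1b* does not overlap between the genotypes, and the highest value of *Npc1*, *Lipa*, *Stard3*, *Abca1* and *Nceh1* is in TauT−/− female 4.

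Macrophages express many of these transport genes, and markers of macrophages moved with genotype. Of 20 macrophage markers 19 had a log2 fold change above 0, with a median of 0.95. edgeR called *Cd68* alone higher (1.5, SE 0.33, adjusted p = 0.0432 by edgeR) and DESeq2 called 9 higher (5.34% of all genes). Their summed level was 1529 to 10130 CPM in TauT+/+ (n = 7) and 6959 to 22600 CPM in TauT−/− libraries (n = 8), highest in TauT−/− female 4, although the cultures had been depleted of CD45 positive cells. With the mean of these markers as a covariate, the log2 fold change of *Gramd1b* was 0.67 (edgeR unadjusted p = 0.0137, adjusted p = 0.333). That of *Nceh1* was 0.28. In this fit edgeR called 0 genes lower and 0 higher over all genes, so the lost call is not particular to *Gramd1b*. In bulk RNA, fewer cells of a type and less RNA per cell cannot be told apart, and the part of macrophages in these differences was not tested further.

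Against the same summed level, *Sqle* had r = −0.78 over the 13 libraries (permutation p = 0.00134, adjusted p = 0.00938 over 7 genes). The relation rested on few libraries, as rho was −0.54 (permutation test, adjusted p = 0.197) and r without the 2 farthest libraries was −0.46, with −0.86 in male-labelled (n = 6) and −0.50 in female-labelled libraries (n = 7). *Idi1* had r = −0.63 (permutation p = 0.0276, adjusted p = 0.0966) and the other 5 members −0.48 to −0.06, not past the threshold. Markers of other cells were also followed. Of 8 adipocyte markers all 8 lay below 0 (median −1.27, 0 called by edgeR and 4 lower by DESeq2, against 6.13% of all genes), with sums of 317.4 to 4078 CPM in TauT+/+ and 227.5 to 1679 CPM in TauT−/− libraries. Sums of 13 stromal markers were 27820 to 46850 and 6424 to 40600 CPM, and *Lepr*, a marker of marrow MSCs, was under 1 CPM on average. Of these 13, edgeR called 0 and DESeq2 3 lower (6.13% of all genes). Endothelial markers summed to 9.50 to 20.3 CPM in TauT+/+ and 13.5 to 120.7 CPM in TauT−/− libraries. Of the 8 tested, edgeR called 0 and DESeq2 1 higher (5.34% of all genes). Erythroid markers summed to at most 0.112 CPM, with *Hba-a2* and *Hbb-bs* at 0 in every library. All 10 markers of cycling cells lay above 0, with 0 called by edgeR or DESeq2 and 0 at an unadjusted p under 0.05. The part of these cells in the levels of the 7 genes was not tested.

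Fatty acid synthesis is driven mainly by SREBP1, and of 15 such genes edgeR called 1 lower and 0 higher (0.591% and 0.564% of all genes), and DESeq2 3 lower and 1 higher (6.13% and 5.34%). *Me1*, malic enzyme, which supplies NADPH, was at 102, 180.3, 124 and 110.3 CPM in TauT+/+ male and 98.5, 123 and 123 CPM in TauT+/+ female libraries. In TauT−/− libraries it was at 80.7, 80.2, 102 and 70.2 CPM (male) and 69.4, 87.8, 78.9 and 63.9 CPM (female). *Me1* fell by 0.63 on the log2 scale (SE 0.13, adjusted p = 0.0416 by edgeR), and the ranges met only in TauT−/− male 3, which lay above TauT+/+ male 1 and female 1. In fits that left out 1 library the call was lost in 8 of 15, without TauT+/+ male 2 or any TauT+/+ female library and without TauT−/− male 1, male 4, female 3 or female 4 (−0.71 to −0.56 over the 15), and over 13 libraries with the female-labelled ones kept it was lost too (−0.67, edgeR adjusted p = 0.0729), as it was without the 3 libraries (−0.65, edgeR adjusted p = 0.156). DESeq2 also called *Acacb* (−1.05) and *Gpam* (−0.67) lower and *Mid1ip1* (0.70) higher, all of them picked for naming after their values were known, with edgeR adjusted p of 0.0630 to 0.0906.

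Mevalonate also feeds the branches to dolichol, ubiquinone and protein prenylation. Of 12 genes of these branches 0 were called by edgeR or DESeq2, and 2, both higher, had an unadjusted p under 0.05 (11.8% of all genes were higher at that p), with a median log2 fold change of 0.04. These were *Rabggtb* (0.45, SE 0.18, adjusted p = 0.154 by edgeR) and *Rabggta* (0.41, SE 0.17, adjusted p = 0.175 by edgeR), the subunits of the enzyme that attaches geranylgeranyl groups to Rab proteins. All 12 had a 95% interval within 2-fold in both directions.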

How the data were processed

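The authors amplified full-length cDNA with the SMART-Seq mRNA LP kit, filtered reads with fastp 0.23.1, mapped them with STAR 2.7.9a to GRCm39 with GENCODE M31 (which their text calls the human genome) and counted reads per gene with featureCounts of Subread 2.0.1 on one strand. The deposited values are whole-number counts, not normalized, for 56832 genes in 15 libraries, and each column was matched to a sample by name (0 left over). The authors' own test, in DESeq2 with sex and condition, was not used here.

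Genotypes were compared by the quasi-likelihood test of edgeR 4.0.16 (R 4.3.3), with TMM scaling, filterByExpr by group, sex label and genotype as terms and Benjamini-Hochberg adjustment over 18263 genes. DESeq2 1.42.0 and voom with sample quality weights (limma 3.58.1) were alternatives, as were other scalings, filters and sets of libraries. CPM use TMM-scaled library sizes. Correlations used log2(CPM + 0.5) and 100000 permutations. Positions came from GENCODE on GRCm39, copies from BLAST+ 2.17.0 (matches of at least 150 bases and 90% identity), and promoters from RefSeq. Genes named were the members, *Slc6a6*, the genes called in each list or else the 2 with the largest change among those averaging 1 CPM or more, and the 8 genes most like the members. Members, lists and tests were chosen with earlier results of these data known. The genotype comparison over 15 libraries was tested on simulated data in edgeR, DESeq2 and voom, with 200 genes changed 4-fold. DESeq2 made 57 false calls and edgeR 3, so calls by DESeq2 alone are less certain. edgeR recovered 67.5% of the changed genes and DESeq2 78.0%, so edgeR missed more of the true changes. The simulated libraries were independent, and changes smaller than 4-fold were not simulated. The correlations, the fits within sex labels and the interaction were not tested in this way. Some genes counted in the lists are not reported here by name or drawn.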

Additional observations from a re-analysis of the deposited data

Results flagged for a closer look

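In 5 of 99 groups examined, 1 library lay far from its 3 fellows (33 genes in 3 groups of 4 libraries), where about 4.95 would pass by chance at Dixon's 95% critical value of 0.829 for the gap to the nearest library over the whole range. None of the 5 was one of the 7 genes. *Mbtps2* was high in TauT−/− female 4 (52.3 CPM against 37.7 to 38.4 in the other 3, ratio 0.957). *Lipa* was high in TauT−/− male 4 (505 against 274 to 285 CPM, ratio 0.951). *Stard3* was low in TauT−/− male 1 (31.7 against 35.2 to 35.7 CPM, ratio 0.863) and high in TauT−/− female 4 (52.0 against 29.4 to 33.2 CPM, ratio 0.832). *Mid1ip1* was low in TauT+/+ male 2 (28.2 against 43.6 to 45.1 CPM, ratio 0.912), the library with the lowest sum of macrophage markers (1529 CPM).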

How the results depend on the processing

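Of the 7 members, 0 were called in any alternative, also within each sex label and for the difference between labels. The log2 fold change of some genes took the other sign in some fits, and 0 of the 101 values that did so passed the threshold. With upper-quartile scaling the values were *Hmgcs1* −0.014 and *Srebf2* −0.023. With at least 10 counts required in every library, the values were *Hmgcs1* −0.024, *Insig1* −0.0039 and *Srebf2* −0.031. Without the sex term the values were *Hmgcs1* −0.017 and *Srebf2* −0.0022. With 13 libraries, the female-labelled of each near-identical pair kept, the values were *Hmgcs1* −0.10, *Fdft1* −0.022, *Insig1* −0.022 and *Srebf2* −0.0082, *Fdft1* −0.090, *Idi1* −0.28 and *Lss* −0.032 within the male label, *Fdft1* 0.13 and *Idi1* 0.088 for the female minus male difference. With the male-labelled ones kept, the values were *Hmgcs1* −0.13, *Fdft1* −0.029, *Insig1* −0.040 and *Srebf2* −0.013, *Hmgcs1* −0.35 and *Fdft1* −0.21 within the female label, *Hmgcs1* −0.35 for the female minus male difference. Without the 3 libraries whose sex-linked genes go against the label, the values were *Hmgcs1* −0.10, *Insig1* −0.0049 and *Srebf2* −0.029, *Fdft1* −0.079, *Idi1* −0.27 and *Lss* −0.019 within the male label, *Sqle* 0.093 within the female label, *Fdft1* 0.32 and *Idi1* 0.087 for the female minus male difference. With the macrophage covariate the values were *Sqle* 0.27, *Idi1* 0.30 and *Acat2* 0.12. With voom *Idi1* was 0.0039. With the replicate block *Insig1* was −0.053. With DESeq2 *Srebf2* was −0.0037. With no filter *Srebf2* was −0.0051. In fits that left out 1 library, those that changed sign ranged from −0.082 to 0.14 (*Hmgcs1*), −0.0022 to 0.14 (*Fdft1*), −0.20 to 0.025 (*Idi1*), −0.080 to 0.10 (*Insig1*) and −0.085 to 0.064 (*Srebf2*). Within the male label these ranges were −0.19 to 0.25 (*Hmgcs1*), −0.048 to 0.18 (*Fdft1*), −0.16 to 0.22 (*Idi1*), −0.21 to 0.049 (*Insig1*) and −0.22 to 0.042 (*Srebf2*), and within the female label −0.19 to 0.19 (*Hmgcs1*), −0.25 to 0.093 (*Sqle*), −0.10 to 0.24 (*Fdft1*), −0.50 to 0.043 (*Idi1*) and −0.069 to 0.35 (*Insig1*). For the female minus male difference they were −0.22 to 0.22 (*Hmgcs1*), −0.17 to 0.17 (*Fdft1*), −0.52 to 0.032 (*Idi1*) and −0.040 to 0.43 (*Lss*). The cause was not tested. Over all genes, where 108 were lower and 103 higher, the counts were 1120 and 976 with DESeq2, 535 and 659 with voom, 42 and 32 with no filter, 202 and 208 without the sex term, and 0 and 0 both with the macrophage covariate and without the 3 libraries. They were 0 and 2 with the female-labelled of each near-identical pair kept, and 0 and 7 with the male-labelled kept. With at least 10 counts in every library 200 genes were lower. With 1 library left out, 4 to 766 were lower and 8 to 470 higher, the most in both directions without TauT+/+ male 3 and the fewest without TauT+/+ female 1 or 2. The labels do not say that replicate numbers pair the samples, and deviations of same-numbered libraries correlated with r of 0.171 to 0.633 in 4 male pairs and −0.0397 to 0.306 in 3 female pairs, so the numbers were not taken as pairs, although each male library correlated best with its own number. With the replicate number as a block, 102 genes were lower and 69 higher, and *Gramd1b* (0.89, adjusted p = 0.0663 in edgeR) and *Me1* (−0.58, adjusted p = 0.0539) were no longer called. With all 15 libraries 9 pairs of members correlated past the threshold in place of 6. The shallowest library held 12761107 counts.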
